A study of Homo sapiens with 2 samples.

Results

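Chromatin accessibility around 10 genes induced by hypoxia was examined in CAL27, an established human line of tongue squamous cell carcinoma. The genes were CA9, CA12, BNIP3, BNIP3L, NDRG1, ADM, ANKRD37, DDIT4, HILPDA and P4HA1, chosen by name as targets of the hypoxia-inducible factors and not by their values. Earlier results of these data were known when the choice was made. ATAC-seq, which reads open chromatin from the places where the transposase Tn5 can insert adapters, gave 1 library of untreated CAL27 cells and 1 of CAL27 cells given 10 mM lactate for 24 h. The labels name no genetic change in either group. The deposited lists hold the regions called open in each library on hg38. Regions of both lists that overlapped were merged, and those lying in a gene of the set or within 50 kb of either end were taken, which gave 95 of 130506 merged regions. Of these, 68 were in both lists, 25 in the lactate list alone (background, the share of all merged regions: 26%) and 2 in the untreated list alone (background 7.48%).

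The hypoxia-inducible factors are dimers of an oxygen-labile alpha subunit and the stable partner ARNT. Prolyl hydroxylases mark the alpha subunit for destruction while oxygen is present, and in hypoxia the dimer binds promoters and enhancers at a short core with the letters ACGTG or GCGTG. The targets examined here act on pH (CA9, CA12), on the removal of mitochondria (BNIP3, BNIP3L), on growth and stress signalling (DDIT4, NDRG1, ADM), on stored lipid (HILPDA) and on collagen (P4HA1). In squamous carcinoma CA9 is a widely used marker of hypoxic tissue.

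The untreated library held 18248413 tags and the lactate library 15401276. The height of a region is the largest number of extended tags over a summit, given per 1000000 total tags of its library. A height is read at 1 point and does not scale with the length of a gene. The ratio is the lactate height divided by the untreated height. Over all 86803 regions in both lists the median ratio was 1.65, so a ratio is also set against regions of equal height: the relative ratio divides it by the median ratio of regions with a like number of summit tags. Since each group is a single library of 1 cell line, differences could not be set against a spread between replicates and no test was made. They are differences between the pair of libraries, not between conditions. Intervals are exact 95% intervals that cover counting error only. In a bulk library, fewer open cells and fewer cuts per open cell cannot be told apart. Of 14 squamous marker genes, 12 had a region at a gene start in both lists, against 3 of 7 fibroblast, 4 of 6 leukocyte and 0 of 5 endothelial markers and 60.7% of the 15811 protein-coding genes with a known strand. Among the squamous markers, KRT14 and TP63 had none. An open start is not a measure of expression.

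The promoter letters are shown first because the tallest summits of both libraries lay within them at BNIP3, ANKRD37, DDIT4 and P4HA1. RefSeq sequences of GRCh38.p14 were found for 7 of the 10 genes, and entries for BNIP3L, NDRG1 and HILPDA were not matched. The 250 bases before the gene start are printed below, on the strand of the gene and 5′ to 3′, for the 5 genes that hold ACGTG on either strand. The capitals mark ACGTG or its complement CACGT, and CACGTG where both overlap. The windows are chr10:131981924-131982173 on the minus strand for BNIP3, chr4:185396591-185396840 on the plus strand for ANKRD37, chr10:72273674-72273923 on the plus strand for DDIT4, chr10:73096867-73097116 on the minus strand for P4HA1 and chr9:35673678-35673927 on the plus strand for CA9.
BNIP3: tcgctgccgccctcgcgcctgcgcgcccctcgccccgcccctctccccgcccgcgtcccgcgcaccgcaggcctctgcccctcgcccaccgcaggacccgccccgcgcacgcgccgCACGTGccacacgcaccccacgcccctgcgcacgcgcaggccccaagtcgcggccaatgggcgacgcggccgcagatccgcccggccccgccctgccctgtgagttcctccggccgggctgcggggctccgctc
ANKRD37: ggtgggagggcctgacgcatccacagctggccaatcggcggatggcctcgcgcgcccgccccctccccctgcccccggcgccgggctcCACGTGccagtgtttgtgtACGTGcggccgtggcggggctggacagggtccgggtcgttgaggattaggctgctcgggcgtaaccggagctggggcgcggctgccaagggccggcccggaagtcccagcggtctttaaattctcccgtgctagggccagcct
DDIT4: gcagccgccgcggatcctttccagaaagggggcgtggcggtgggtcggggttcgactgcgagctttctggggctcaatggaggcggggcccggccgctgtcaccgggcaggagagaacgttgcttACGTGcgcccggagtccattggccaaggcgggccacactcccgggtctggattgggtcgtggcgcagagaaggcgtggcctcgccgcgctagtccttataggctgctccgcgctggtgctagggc
P4HA1: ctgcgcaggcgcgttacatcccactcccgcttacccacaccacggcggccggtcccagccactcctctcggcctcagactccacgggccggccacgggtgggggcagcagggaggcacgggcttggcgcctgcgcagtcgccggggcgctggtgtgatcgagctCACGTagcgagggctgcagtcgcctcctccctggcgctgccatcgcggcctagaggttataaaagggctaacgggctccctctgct
CA9: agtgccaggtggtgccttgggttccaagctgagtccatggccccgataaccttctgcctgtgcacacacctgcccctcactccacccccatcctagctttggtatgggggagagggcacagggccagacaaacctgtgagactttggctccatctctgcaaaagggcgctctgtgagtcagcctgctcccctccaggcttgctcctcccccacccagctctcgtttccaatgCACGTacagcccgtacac

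ACGTG was held by 5 of the 7 windows and by 20.8% of the windows of 15811 protein-coding genes. The genes were chosen as targets of factors that bind this core, so a higher share is partly built into the choice. The windows were not matched for base content. Positions are counted from the gene start at 0. The CACGTG of BNIP3 lay at -134 to -129, and that of ANKRD37 at -162 to -157, with a further ACGTG at -143 to -139. DDIT4 held ACGTG at -125 to -121, P4HA1 its complement at -86 to -82 and CA9 its complement at -18 to -14. The other core, GCGTG, was searched on both strands too and does not overlap ACGTG in these windows. It occurred 4 times in BNIP3, 2 times in DDIT4 and 1 time each in CA12 and ADM, and was held by 39.1% of all windows. A match is a string of letters and not a measured binding site. Median relative ratios were also taken across all genes with a start region in both lists. They were 1.0 over 2297 windows with ACGTG and 1.01 over 7304 without. For GCGTG they were 1.02 over 4447 windows with it and 1.0 over 5154 without. For the letters CCAAT they were 1.04 over 3518 windows with them and 0.995 over 6083 without. CCAAT was held by 4 of the 7 windows (34.4% of all), TATAAA by 2 (9.25%) and the AP-1 motif TGANTCA by 1, that of CA9 (5.05%), each searched on both strands.

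The windows differed widely in CpG content. BNIP3 held 41 CpG dinucleotides in its 250 bases, ANKRD37 and DDIT4 26 each, P4HA1 25, ADM 16, CA12 13 and CA9 5, beside a median of 17 over all windows. The 2 genes with the fewest, CA9 and CA12, also had the lowest start regions of the set in the lactate library. BNIP3, which held the most, stood next to CA9 in the untreated library, with 19 tags beside 12. That pair did not differ beyond counting error. Among all windows with 6 or fewer CpG, 21% had a start region in both lists, against 64.7% of those with 7 to 17, which include CA12, 80.9% of those with 18 to 26 and 77.2% of those with 27 or more, which include BNIP3.

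Start regions were taken as the tallest merged region within 1 kb of the gene start, or, for the 3 genes whose strand was not given, within 1 kb of either gene end. All 10 genes had one in the lactate list, and 9 had one in both. At all 9 the lactate height exceeded the untreated height, when scaled for depth (background, the share of all start regions: 97%) and on raw tags (background 91%). By fold enrichment over local background 8 of the 9 did (background 94.2%), and NDRG1 turned to 0.961. The median ratio was 2.24 over the 9 regions and 1.85 over 8565 start regions of protein-coding genes in both lists. A ratio of 2 or more was reached by 6 of the 9, beside 39.4% of all start regions. Against regions of equal height the 9 had a median relative ratio of 1.18, beside 1.02 over all start regions, and 7 lay above 1 (background 51.3%). The interval of the relative ratio lay above 1 at 2 of them, BNIP3 and DDIT4 (background 6.65%), and below 1 at 0 (background 5.95%).

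**Figure D1:**
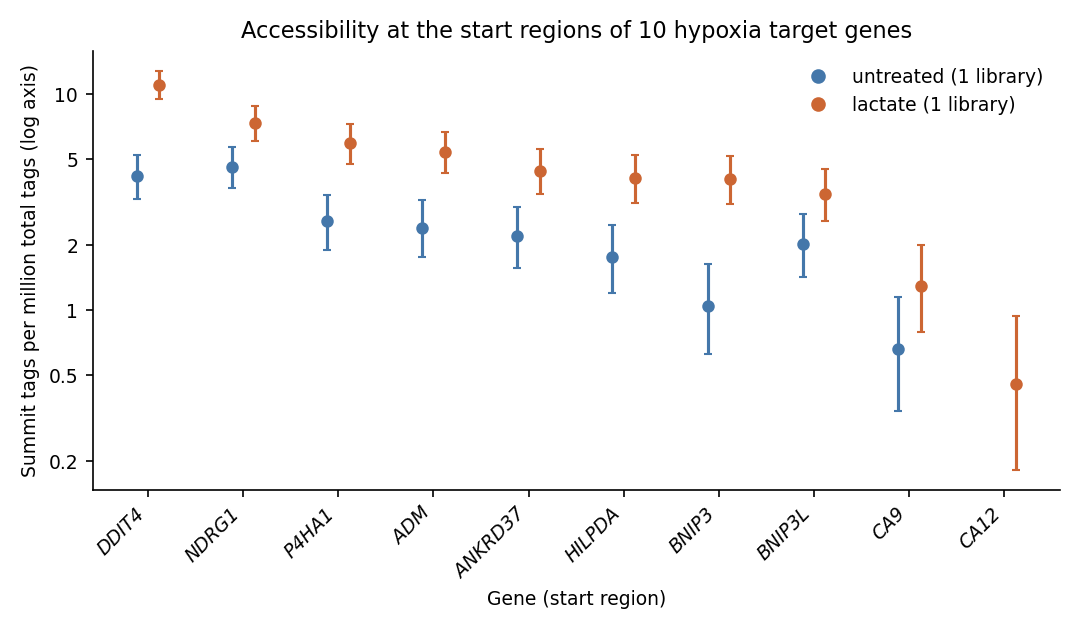
Height of the start region of each gene in tags per 1000000 total tags (log axis), in the untreated and the lactate library, with exact Poisson 95% intervals of counting error. The lactate point lies above the untreated one at all 9 genes listed in both, and CA12 has a lactate point alone at 0.455.

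In the untreated library the order of start heights ran from NDRG1 (4.6 tags per 1000000) and DDIT4 (4.16) through P4HA1 (2.58), ADM (2.41), ANKRD37 (2.19), BNIP3L (2.03) and HILPDA (1.75) to BNIP3 (1.04) and CA9 (0.658). Of neighbours in this order, DDIT4 and P4HA1 were the one pair that differed beyond counting error, by 1.62 (interval 1.11 to 2.38). In the lactate library DDIT4 led with 11.0, followed by NDRG1 (7.34), P4HA1 (5.91), ADM (5.39), ANKRD37 (4.42), HILPDA (4.09), BNIP3 (4.03), BNIP3L (3.44), CA9 (1.30) and CA12 (0.455). There DDIT4 exceeded NDRG1 by 1.5 (1.18 to 1.93), BNIP3L exceeded CA9 by 2.65 (1.56 to 4.68), and CA9 exceeded CA12 by 2.86 (1.16 to 8.0). The other neighbours, from NDRG1 down to BNIP3L, did not differ beyond counting error.

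CA9 and CA12 encode membrane carbonic anhydrases that hydrate carbon dioxide outside the cell and so acidify its surroundings. The CA9 start region (chr9:35673484-35674043) held 12 untreated and 20 lactate tags. Its ratio was 1.97 (0.919 to 4.43) and its relative ratio 1.27 (0.593 to 2.86), so a difference was not detectable at this depth. Its single untreated summit stood at 14 and its single lactate summit at -301, beyond the printed letters. The ratio at the CA9 start thus compares different summits, 315 bp apart. All 8 other CA9 regions in both lists held more tags than its start in each library.

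The tallest CA9 region lay 14897 bp upstream at the start of CCDC107 (chr9:35657434-35659031), with 82 untreated and 176 lactate tags. The region with the highest relative ratio lay 8437 bp upstream, overlapping ARHGEF39 (chr9:35665057-35665491), and rested on 19 untreated and 55 lactate tags. Its ratio was 3.43 (2.00 to 6.12) and its relative ratio 1.91 (1.12 to 3.41). The lowest, overlapping CD72 (chr9:35646277-35647257), had 53 and 64 tags and a relative ratio of 0.753 (0.515 to 1.10). Other gene starts were searched only for genes with a known strand, so these regions may hold starts that are not named. Neighbouring sites upstream of CA9 thus had relative ratios on both sides of 1. In the lactate list alone CA9 had 3 regions, the tallest of 22 tags downstream (chr9:35696558-35696887).

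CA12 was the one gene of the set with a start region in the lactate list alone (chr15:63381640-63381839). It held 7 tags, or 0.455 per 1000000 (0.183 to 0.936), where the lowest height in the untreated list was 6 tags and that in the lactate list 5. Most of the open sites of CA12 lay inside the gene, 8 of its 12 regions counting the start. The tallest of these (chr15:63331465-63331913) had 50 untreated and 105 lactate tags and a ratio of 2.49 (1.76 to 3.56). The table used gives no exons, so introns were not told from exons.

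The highest ratio of all 68 regions lay inside CA12 (chr15:63372311-63372726). It had 19 untreated and 65 lactate tags, a ratio of 4.05 (2.40 to 7.16) and a relative ratio of 2.22 (1.31 to 3.92). Another intragenic region (chr15:63332707-63333091) had 33 tags in each library and a relative ratio of 0.659 (0.394 to 1.10). The set of CA12 regions therefore spans ratios from 1.18 to 4.05. The tallest in the lactate list alone held 20 tags (chr15:63374671-63374888) and is one of a class of narrow single-summit regions of nearly fixed width, which made up 13.2% of all merged regions and 5.26% of the 95.

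**Figure D2:**
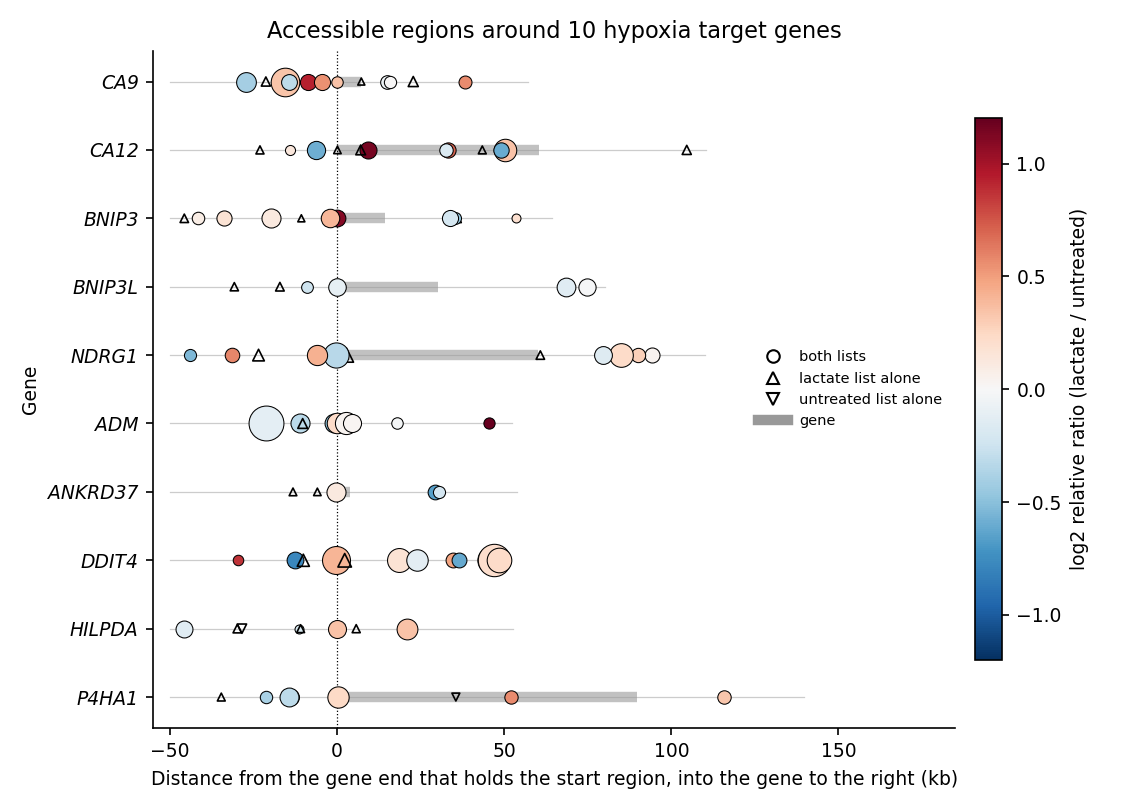
Merged regions around the 10 genes, placed by distance in kb from the gene end that holds the start region, with the gene as a grey bar, where circles are regions in both lists, sized by the added summit tags and coloured by the log2 relative ratio, and triangles are regions of 1 list alone. The darkest red circles lie inside CA12, at the BNIP3 start and downstream of ADM.

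BNIP3 and BNIP3L encode related receptors on the outer mitochondrial membrane that recruit the autophagy machinery to mitochondria. The BNIP3 start region (chr10:131981662-131982278) held 19 untreated and 62 lactate tags, 1.04 and 4.03 per 1000000. Its ratio was 3.87 (2.28 to 6.85) and its relative ratio 2.15 (1.27 to 3.81), both the highest among the 9 start regions. The untreated summit lay at -90 and the lactate summit at -58, within the printed letters. The start of BNIP3 was thus the second lowest of the 9 in the untreated library and level with HILPDA and ANKRD37 in the lactate library.

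A second region 1871 bp upstream of BNIP3 (chr10:131983794-131984209) had 33 and 68 tags, a ratio of 2.44 (1.59 to 3.82) and a relative ratio of 1.32 (0.857 to 2.06). The tallest region of the locus, 19259 bp upstream (chr10:132001182-132002030), had 40 and 68 tags and a relative ratio of 1.09 (0.725 to 1.65). Downstream, within PPP2R2D, the lowest relative ratio was 0.727 (0.357 to 1.48), from 18 tags in each library (chr10:131946317-131946784). The tallest region in 1 list alone, of 13 lactate tags, also lay in PPP2R2D (chr10:131945906-131946175). The relative ratio was therefore highest at the start and nearer 1 at the other sites of the locus.

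The BNIP3L region at its lower-coordinate gene end (chr8:26382649-26383477) held 37 untreated and 53 lactate tags, a ratio of 1.70 (1.09 to 2.66) and a relative ratio of 0.928 (0.599 to 1.45). Within it, the summits paired between the libraries had ratios of 1.70 and 2.08. All 4 BNIP3L regions in both lists had relative ratios below 1, from 0.844 to 0.991, and each interval spanned 1. The tallest lay 38015 bp beyond the upper end (chr8:26451142-26452016) with 43 and 61 tags, and the tallest in 1 list alone held 13 lactate tags (chr8:26365853-26366052). The start ratio of BNIP3L was thus lower than that of BNIP3, but their intervals overlapped, between 2.28 and 2.66. Such an overlap does not decide whether the ratios differ beyond counting error, which was not tested.

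DDIT4 encodes an inhibitor of the growth-promoting kinase mTOR that is induced by several stresses. Its start region (chr10:72272781-72274174) was the tallest in the lactate library, with 170 tags against 76 untreated, or 11.0 and 4.16 per 1000000. The ratio was 2.65 (2.01 to 3.52), and the interval of the relative ratio of 1.32 just cleared 1, at 1.003 to 1.76. The region has 2 summits in each library. The summit near the gene start, at -115 untreated and -37 lactate, carries the ratio of 2.65, while that at -806 and -804 had 60 and 78 tags and a ratio of 1.54 (1.09 to 2.19). The ratio was thus higher beside the start than at the upstream summit, with intervals that overlap between 2.01 and 2.19. Whether the ratios of these summits differ beyond counting error was not tested.

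DDIT4 had the highest median ratio of the 10 loci, 2.33 over 10 regions in both lists, of which 7 reached 2 or more. Against regions of equal height it was not the highest, with a median relative ratio of 1.16 beside 1.27 at CA9. The tallest DDIT4 region lay in a cluster 43598 to 45951 bp downstream, with no start of another protein-coding gene of known strand within 1 kb. The 3 regions of the cluster (chr10:72319634-72320506, chr10:72320674-72321213 and chr10:72321987-72322801) held 75, 113 and 63 untreated and 158, 221 and 125 lactate tags. Their ratios were 2.50, 2.32 and 2.35, and their relative ratios 1.25, 1.16 and 1.17, each with an interval that spanned 1. The lowest relative ratio of the 68 regions was also here, 11897 bp upstream (chr10:72260430-72262027), with 43 untreated and 38 lactate tags and 0.583 (0.367 to 0.923). It was the one region whose interval lay below 1. The highest relative ratio, 1.82 (0.745 to 4.88), rested on 8 and 17 tags (chr10:72243946-72244401). The tallest region in the lactate list alone lay 54 bp past the gene (chr10:72276090-72276320), with 49 tags on a local background of 18.9.

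NDRG1 encodes a stress-responsive protein linked to differentiation and to suppression of metastasis. Its tallest gene-end region, at the upper-coordinate end (chr8:133296980-133298187), held 84 untreated and 113 lactate tags, the highest untreated count among the start regions. Its ratio was 1.59 (1.19 to 2.14) and its relative ratio 0.795 (0.594 to 1.07), the lowest of the 9. The tallest summits of the libraries stood 447 bp apart. Where summits were paired by position, that nearest the gene had 51 untreated and 113 lactate tags and a ratio of 2.63 (1.87 to 3.73). The middle one had 84 and 87 tags and 1.23 (0.899 to 1.68), and the outer one 48 and 62 tags and 1.53 (1.03 to 2.28). The height of the whole region thus compares different summits, and the intervals of the first and the middle pair do not overlap.

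In the lactate list alone NDRG1 had 3 regions. The tallest, of 55 tags, lay inside the gene (chr8:133294337-133294575), on a local background of 15.8 tags. Its fold enrichment, which is the height plus 1 over the background plus 1, was 3.33. A region 23220 bp beyond the upper end (chr8:133320472-133321015), singled out after its values were seen, held 33 tags on a background of 1.80. Its fold enrichment of 12.1 was reached by 0.666% of all lactate-only regions. In the flanks, relative ratios ran from 0.689 (0.341 to 1.39; chr8:133340942-133341836) to 1.5 (0.842 to 2.79; chr8:133328525-133329059).

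ADM encodes adrenomedullin, a secreted peptide that widens blood vessels. Its start region (chr11:10304648-10305389) also overlaps the start end of SBF2, and its signal cannot be assigned to one of the genes. It held 44 untreated and 83 lactate tags, with a ratio of 2.24 (1.53 to 3.30) and a relative ratio of 1.18 (0.806 to 1.74). The lactate list has a second summit of 73 tags at -294 that the untreated list lacks. ADM lay in a compact block of open chromatin, with 4 regions in both lists between chr11:10303937 and chr11:10309805. The local background there was 12.3 to 15.8 untreated and 20.3 to 24.1 lactate tags, and the start region reached fold enrichments of 2.74 and 3.36.

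The tallest ADM region, 21258 bp upstream within SBF2 (chr11:10283593-10283815), was of the narrow class, with 152 and 237 tags and a relative ratio of 0.922 (0.749 to 1.14). The lowest relative ratio was 0.716 (0.480 to 1.07) at chr11:10303937-10304314, next to the start. The highest relative ratio of all 68 regions lay 42865 bp downstream (chr11:10350262-10350755), at 2.51 (1.04 to 6.93), and rested on 7 untreated and 23 lactate tags. The tallest region in 1 list alone held 20 lactate tags (chr11:10294591-10294980).

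ANKRD37 encodes a small ankyrin-repeat protein known as a hypoxia target. Its start region (chr4:185395875-185397287) is shared with the start of LRP2BP and held 40 untreated and 68 lactate tags. The ratio was 2.01 (1.34 to 3.06) and the relative ratio 1.09 (0.725 to 1.65). The 3 summits that could be paired, near -803, -408 and -107 in the untreated library, had ratios of 2.2 (1.11 to 4.56), 1.78 (1.01 to 3.20) and 2.01. The intervals overlapped along the whole region. The site downstream that is shared by the starts of UFSP2 and CFAP96 (chr4:185425638-185426545) had 31 and 29 tags and a relative ratio of 0.632 (0.368 to 1.1). Both regions of ANKRD37 in the lactate list alone were weak, with 8 and 7 tags.

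HILPDA encodes a small protein that blocks triglyceride breakdown on lipid droplets. Its region at the lower-coordinate gene end (chr7:128455525-128456353) held 32 untreated and 63 lactate tags, a ratio of 2.33 (1.5 to 3.69) and a relative ratio of 1.28 (0.821 to 2.02). The tallest region of the locus, at the start of METTL2B (chr7:128476292-128477297), had 43 and 88 tags and a relative ratio of 1.28 (0.876 to 1.88). One of the 2 regions in the untreated list alone lay here, with 17 tags (chr7:128427313-128427529). The lowest relative ratio with at least 20 tags, both libraries added, was 0.905 (0.573 to 1.44), at the start of IMPDH1 (chr7:128409459-128410651).

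P4HA1 encodes the catalytic subunit of the prolyl hydroxylase that stabilises collagen. Its start region (chr10:73096130-73097253) held 47 untreated and 91 lactate tags, with a ratio of 2.29 (1.6 to 3.34) and a relative ratio of 1.18 (0.821 to 1.71). The main summits lay at -71 and -51, and an untreated summit of 20 tags at 639 has no lactate counterpart in the list. Inside the gene, chr10:73044401-73045144 had 15 and 32 tags and a relative ratio of 1.48 (0.777 to 2.93). The other region in the untreated list alone lay inside this gene as well, with 9 tags (chr10:73061206-73061448). Upstream, the 3 regions in both lists at or within NUDT13 had relative ratios of 0.824, 0.803 and 0.766, each with an interval that spanned 1. A further region within NUDT13 was in the lactate list alone, with 9 tags (chr10:73131397-73131610).

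**Figure D3:**
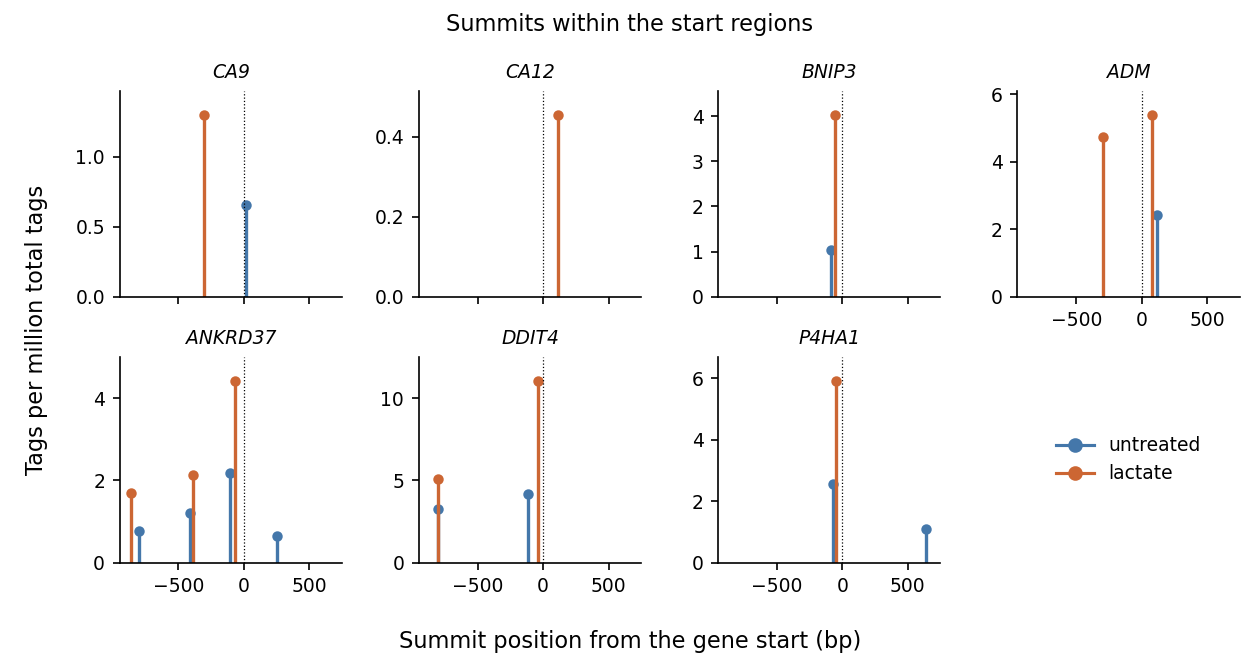
Summits within the start regions of the 7 genes with a known strand, as tags per 1000000 total tags against the position from the gene start in bp, for each library. At BNIP3, ANKRD37, DDIT4 and P4HA1 the tallest summit of both libraries lies within 115 bp before the start, and at CA9 the summits of the libraries lie apart.

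Over the set, all 68 regions in both lists were higher in the lactate library after scaling to total tags (background 88.7%), while 61 of 68 were higher on raw tags (background 77.3%) and 62 by fold enrichment (background 85.6%). A ratio of 2 or more was reached by 29 of 68, or 42.6% (background 29.3%), and a ratio of 0.5 or less by 0 (background 0.297%). The median ratio was 1.83 against 1.65 over all regions in both lists. By fold enrichment all regions had a median ratio of 1.38 and the 68 regions 1.39. These regions were taller than most, with medians of 32 untreated and 49 lactate tags against 22 and 31, and the median ratio of all regions was higher among taller ones, from 1.18 in the lowest of 20 bins of summit tags to 2.0 in the highest. Against regions of equal height the median was 1.04, beside 0.979 over all, and 37 of the 68 lay above 1 (background 45.1%). These backgrounds count the narrow regions, which were 13.2% of all merged regions and 5.26% of the 95. The bins leave them out, so the relative ratio of the other regions centres on 1 by construction. The interval of the relative ratio lay above 1 at 5 (background 4.01%), 1 each at CA9, CA12, BNIP3, ADM and DDIT4, and below 1 at 1 (background 8.21%).

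**Figure D4:**
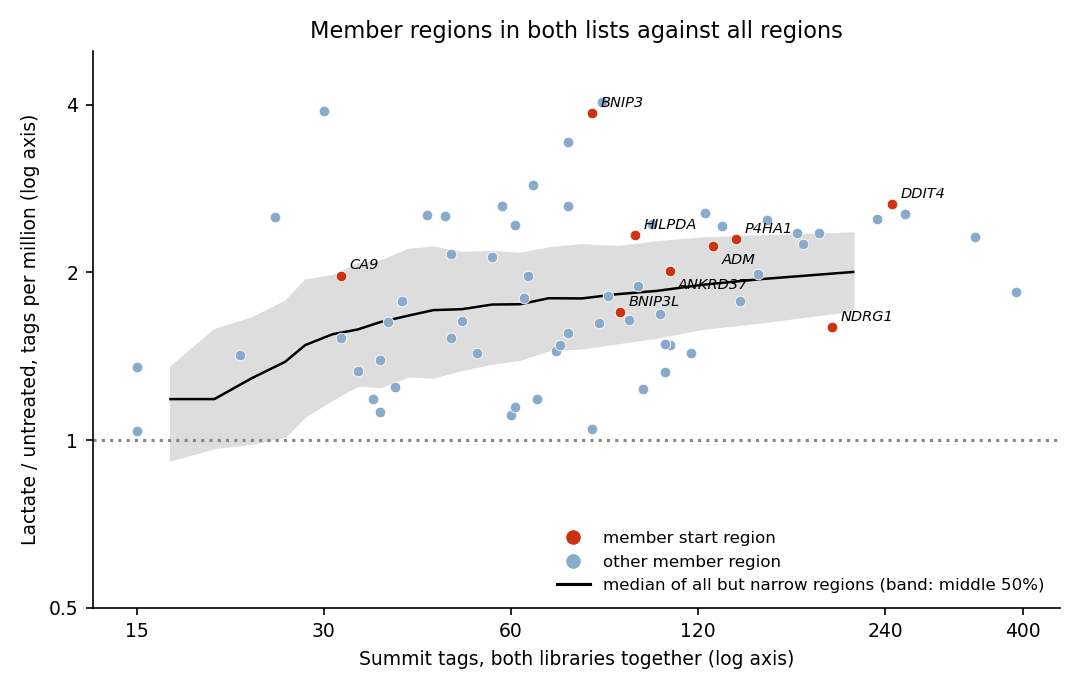
Ratio of lactate to untreated height against the summed summit tags of the pair of libraries, both on log axes, for the 68 regions of the 10 genes in both lists, with a line and band for the median and middle 50% of all regions without the narrow class. The red start regions lie mostly on or above the line, with BNIP3 at 3.87 farthest above it and NDRG1 at 1.59 below it.

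By location, the start regions had a median ratio of 2.24, the 7 other regions inside the genes 2.49 and the 52 flanking regions 1.73. Their median relative ratios were 1.18, 1.28 and 0.996. Of the 7 regions inside the genes 5 belong to CA12, so that median is mostly of 1 gene. Of the 95 regions, 13 lay within 1 kb of the start of another protein-coding gene with a known strand. Starts of genes without one were not searched. Summits stayed in place at most sites, with 48 of the 68 regions having their tallest summits within 50 bp of each other.

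Regions of the lactate list alone made up 26.3% of the 95 (17.8 to 36.4), beside 26% of all merged regions. Those of the untreated list alone made up 2.11% (0.256 to 7.40), beside 7.48%. The 25 lactate-only regions held 5 to 55 tags with a median of 12, against a median of 11 over all lactate-only regions. Of them, 18 held fewer than 20 tags. Among regions with at least 20 tags in either library, 7 of 67 were in 1 list alone, or 10.4%, beside 8.65% of all such regions.

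Other genes of the hypoxia response were read from a separate list of 59, which holds glycolytic targets, further HIF targets and the HIF pathway itself. Of these, 47 had a start region in both lists, 5 in the lactate list alone (PFKP, SLC16A3, ANGPTL4, VLDLR and PPFIA4), 0 in the untreated list alone and 7 in neither. The median ratio was 1.92, with a range from 1.07 to 3.97, and 21 of 47 reached 2 or more (background 39.4%). The median relative ratio was 1.05, beside 1.02 over all start regions, with 27 of 47 above 1 (background 51.3%), an interval above 1 at 8 (background 6.65%) and below 1 at 3 (background 5.95%).

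At the top stood EGLN1, the main oxygen-sensing prolyl hydroxylase (chr1:231421588-231422811), with 17 untreated and 57 lactate tags and a relative ratio of 2.21 (1.27 to 4.06). ENO2, a glycolytic enolase, followed with 10 and 25 tags and 1.88 (0.870 to 4.37), and MXI1, a MYC antagonist, with 21 and 58 tags and 1.82 (1.09 to 3.16). The lowest were the lactate dehydrogenase gene LDHA with 62 and 56 tags and 0.563 (0.385 to 0.821), the enolase gene ENO1 with 74 and 83 tags and 0.683 (0.493 to 0.948), and STC2 with 73 and 82 tags and 0.684 (0.493 to 0.951). The 3 lowest were tall in the untreated library and the 3 highest were low there. The untreated height is the divisor of the ratio, so this contrast is partly built into the choice of these genes.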

How the data were processed

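ATAC-seq peak lists of 2 libraries were used, 1 per group, with groups taken from the treatment labels. The tools in the submitters' processing notes are BWA 0.7.12, fastp 0.20.0 and MACS2 2.1.0, with the build hg38, and the file headers give MACS 2.2.7.1. Peaks were called by the authors, per the file headers, on each library alone with no control, at a q-value of 0.05, with tags shifted by 100 bp and extended to 200 bp, which centres each tag on the Tn5 cut. The deposited pileup is a signal, the number of extended tags over a summit, not scaled for depth. The deposited fold enrichment is the ratio of pileup plus 1 to background plus 1, from which the background was recovered. Several member regions sit at 1 shared lowest background in the lactate list. Per the file headers, local background was read over up to 10000 bp. Starts, ends, lengths and summits were deposited in base pairs.

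Chromosomes 1 to 22 and X were used. A region counted once, with its tallest summit, and regions overlapping by at least 1 bp were merged. Relative ratios used 20 bins of summit tags, set without the narrow regions. Gene coordinates came from RefSeq GRCh38.p14 for 19970 protein-coding genes, of which 15811 had a strand. Members and gene lists were chosen with earlier results of these data known. Each gene's start region, tallest region, regions of highest and lowest relative ratio with at least 20 tags in all (both libraries added), and tallest region of 1 list alone were named, with the 3 highest and lowest of the other hypoxia genes. Paired summits lay within 150 bp. Intervals are conditional Poisson for ratios, Poisson for heights and Clopper-Pearson for shares. No test was possible with 1 library per group. Merging, ratios and intervals were tested on simulated data. Python 3.11.15, pandas 2.3.3 and scipy 1.17.1 were used.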

Additional observations from a re-analysis of the deposited data

How the results depend on the processing

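No paired analysis was possible because neither group has more than 1 library, and for the same reason no library could be left out. Of 33 alternative values of the set as a whole, 22 stayed close to the reported ones, 11 moved by more, and no median turned below 1. The number of regions was 37 within 10 kb and 166 within 100 kb. The share in 1 list alone was 10.4% among regions of at least 20 tags. Fold enrichment in place of pileup gave medians of 1.39 over the 68 regions and 1.38 over all regions in both lists. On this scale the 68 regions were thus nearly level with all regions, and 35 of them lay above that median. With scaled pileup 40 of the 68 lay above the median of all regions. Fold enrichment gave 1.52 over the start regions and 1.53 over the other hypoxia genes. Raw pileup gave 1.54 over the 68 regions, beside 1.39 over all regions in both lists, and 1.62 over the other hypoxia genes. Relative to regions with equal summit tags the medians were 1.04, 1.18 and 1.05. The median of all regions itself moved by -0.26 (log2) with fold enrichment, by -0.24 with raw pileup and by -0.75 on the relative scale. Of 63 values of single start regions 51 stayed within the counting interval and 12 moved, among them NDRG1, which crossed 1 to 0.961 with fold enrichment, and BNIP3 at 2.15 on the relative scale. With a window of 2 kb the tallest BNIP3 region became the upstream one, with a ratio of 2.44. Depth limits the start regions of CA9 and CA12 and most lactate-only regions, whose summits hold 20 tags or fewer.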
